A study of Mus musculus with 6 samples.

Results

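The ureteric bud is the epithelial outgrowth of the nephric duct that branches inside the embryonic kidney and becomes the collecting duct system, and 10 genes that mark or direct it were followed here: Gata2, Gata3, Calb1, Wfdc2, Tfcp2l1, Emx2, Ret, Gfra1, Etv4 and Spry1. Members were all probe sets whose platform annotation names 1 of these genes and no other. This gave 11 probe sets for 8 of the 10 genes, out of 12422 probe sets and 8251 named genes on the array. Emx2, a homeobox factor of the bud, and Spry1 were not analysed here, since the annotation used pairs no single-gene probe set with them. RNA came from whole metanephroi (embryonic kidneys) at E14.5, Theiler stage 22, in 4 wild-type samples labelled strain CD-1 and 2 Wnt4 mutant samples that carry the allele Wnt4tm1Amc and are labelled strain 129. A wild-type pool held 2 kidneys, while a mutant pool held 8 to 10 kidneys of 4 to 5 embryos. The protocol text of all 6 samples describes CD-1 matings, and sex is given as unknown. Strain label, pool size and genotype cannot be told apart. Per the design text, kidneys without Wnt4, a secreted signal, do not form renal vesicles, the first epithelial nephron precursors, and the comparison was meant to find genes of those vesicles and of what they become.

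The bud grows and branches in answer to GDNF, a ligand made by the surrounding nephron progenitors. GDNF binds the co-receptor GFRA1 on the bud tip and activates the receptor tyrosine kinase RET, which raises ETS factors such as ETV4, while Sprouty proteins dampen the signal. GATA3 keeps Ret expressed in the nephric duct, and the bud in turn induces nephrons around its tips through Wnt signals. Several of these genes have other sites of expression too: Calb1 and Wfdc2 in nephron tubules, Gata2 in blood precursors and endothelium, and Ret, Gfra1 and Gata3 in sympathetic and other neural crest derivatives.

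Arrays were comparable in level, with a median signal of 173 to 191. Wnt4 read 829, 739, 946 and 699 on the wild-type arrays (replicates 1 to 4) against 74.2 and 34.5 in the mutant, so both mutant arrays matched their label, as far as a probe set of unstated position in the altered gene can show. Over the whole array, 10.8% of the 7981 probe sets tested passed the threshold (limma, Benjamini-Hochberg adjusted p under 0.05), 4.65% higher and 6.11% lower in the mutant. The spiked-in bacterial control BioB was lower on the mutant arrays (log2 difference -0.86 at its middle probe set), and its part in the results was not tested. Nothing in the labels says that the wild-type pools came from separate litters, so p-values measure only the spread between these pools.

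The bud and duct genes did not all move one way. Of the 9 member probe sets tested, 1 rose (Gata2), 2 fell (Calb1 and Wfdc2) and 6 did not pass. The 3 calls are 33.3% of the members tested, beside 10.8% of all probe sets, and the members were chosen with earlier results known. The receptor gene Ret read 8.08 and 8.61 in the mutant against 30.5 to 104 in the wild type, but lay under the filter on low signals. By gene, the median log2 difference of the 7 members tested was -0.04, beside 0.01 over all 6082 genes tested. In whole kidneys, fewer cells of a type and less RNA per cell cannot be told apart.

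**Figure D1:**
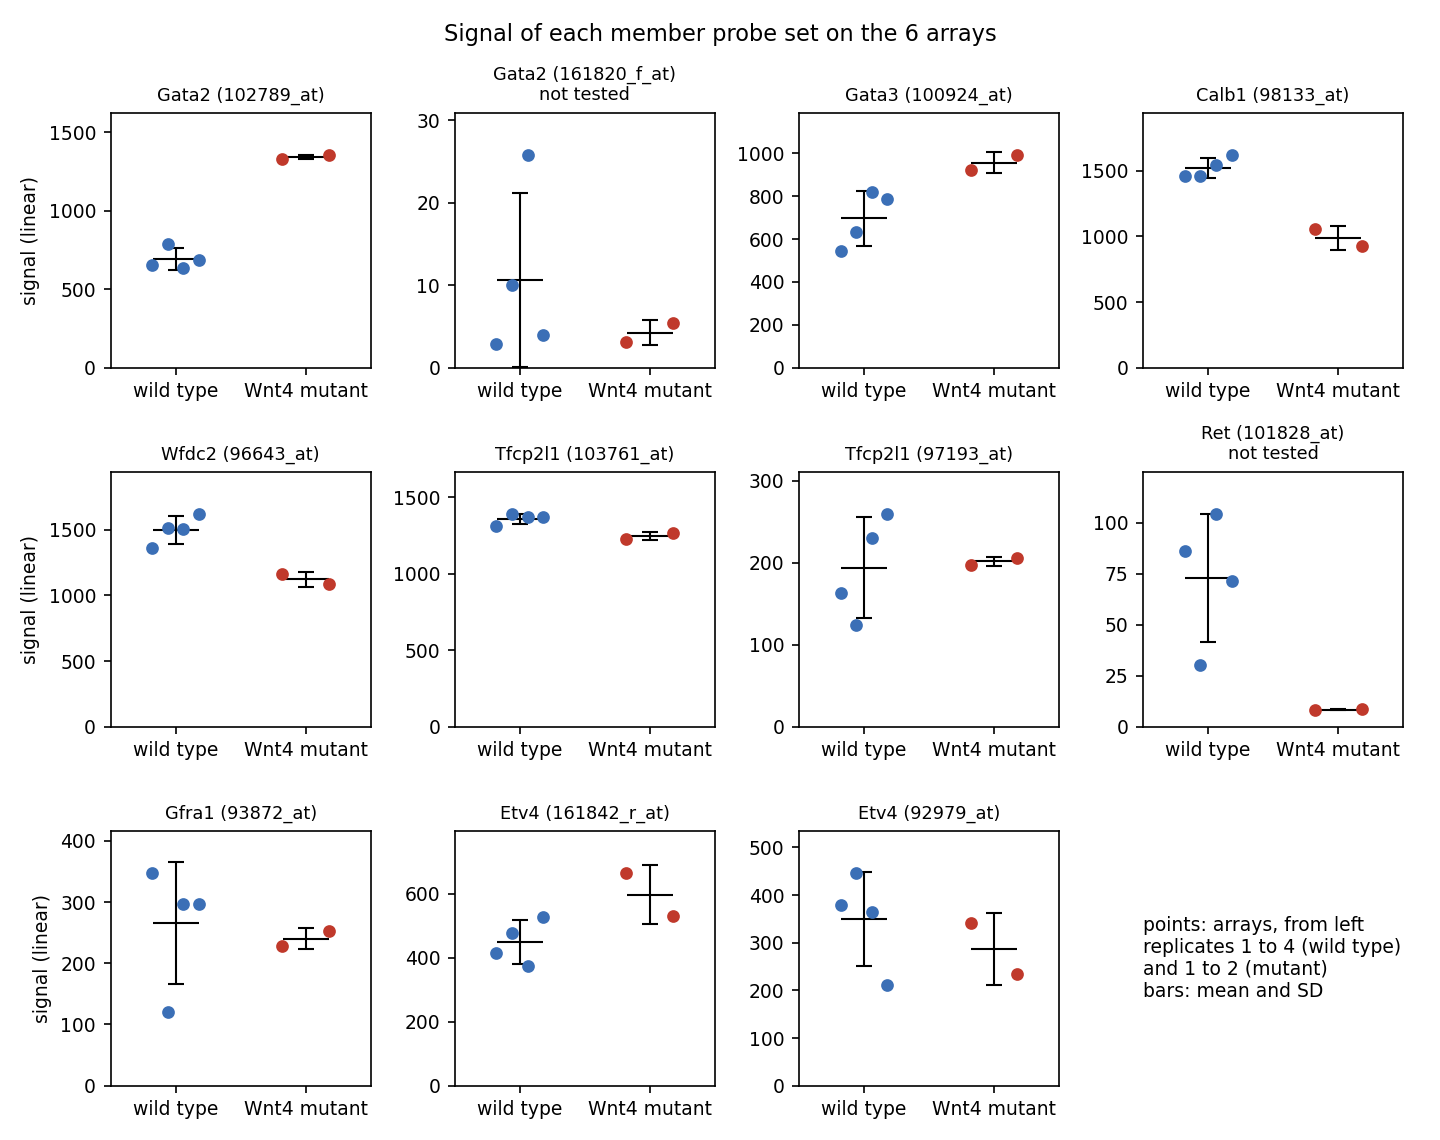
Linear signal (vertical axes, starting at 0) of the 11 member probe sets on the 6 arrays, wild type in blue and Wnt4 mutant in red, with 1 point per array and bars for mean and SD (n = 4 and 2). Gata2 at its _at probe set lies above the wild-type range in both mutant samples, Calb1, Wfdc2 and Ret lie below it, and Gfra1 overlaps.

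Upstream sequence is shown for Gata2 and Wfdc2, which passed in opposite directions, and for Gata3, the paralogue of Gata2. RefSeq promoter entries (GRCm38.p6) matched 7 of the 10 members, with 9 start sites between them. Bases run 5′ to 3′ on the gene's strand and end just before the start site, with 150 bases for the GATA genes and 250 for Wfdc2. The stretches lie at chr6:88193741-88193890 and chr6:88198514-88198663 (plus strand) for the first and second start of Gata2, at chr2:9878601-9878750 (minus strand) for Gata3 and at chr2:164562465-164562714 (plus strand) for Wfdc2. Capitals mark a match to the CP2 pattern, a pair of CCNG half-sites with 6 bases between them, named for the CP2 family to which Tfcp2l1 belongs.
Gata2, first start: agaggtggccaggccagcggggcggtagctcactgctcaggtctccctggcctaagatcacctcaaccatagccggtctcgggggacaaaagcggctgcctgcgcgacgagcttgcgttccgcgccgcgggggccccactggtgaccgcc
Gata2, second start: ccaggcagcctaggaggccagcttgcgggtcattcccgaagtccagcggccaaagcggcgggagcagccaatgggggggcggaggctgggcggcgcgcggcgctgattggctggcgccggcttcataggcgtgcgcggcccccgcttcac
Gata3: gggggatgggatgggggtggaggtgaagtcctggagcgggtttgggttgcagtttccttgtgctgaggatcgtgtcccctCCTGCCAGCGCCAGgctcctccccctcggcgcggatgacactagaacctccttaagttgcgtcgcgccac
Wfdc2: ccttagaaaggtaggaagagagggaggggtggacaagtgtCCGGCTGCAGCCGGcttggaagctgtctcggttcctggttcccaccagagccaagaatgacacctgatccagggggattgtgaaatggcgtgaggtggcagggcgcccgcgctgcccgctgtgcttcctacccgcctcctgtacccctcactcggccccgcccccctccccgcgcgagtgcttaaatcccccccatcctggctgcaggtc
Over the 250 bases before each start, the CP2 pattern was found at Gata3 (70 bases before the start) and at Wfdc2 (210 bases before), and at none of the other 5 members with an entry. It occurs in 24.9% of all 32851 promoter entries. The letters GATA with A or T before them and A or G after them, searched on both strands, were in none of the 9 member windows and in 26.5% of all. The ETS core CCGGAAG, searched the same way, was in none of them and in 6.91% of all. A match is one of letters only, and a missing match covers this window alone.

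Gata2 encodes a zinc-finger transcription factor of urogenital and blood development. Its probe set of type _at read 653, 792, 639 and 687 on the wild-type arrays (replicates 1 to 4) against 1332 and 1354 in the mutant. Both mutant arrays lay far above the highest wild-type array and close to each other. The mean rose from 693 ± 69.3 (SD, n = 4) to 1343 ± 14.9 (SD, n = 2), or 1.92-fold. On the log2 scale this is 0.94 with an SE of 0.12 (limma, adjusted p = 0.00123). The call held with each array left out in turn (0.91 to 1.01, adjusted p = 0.00113 to 0.0245). The other Gata2 probe set, of type _f_at, read 2.86 to 25.7 in the wild type and 3.15 and 5.36 in the mutant, at or below the 19.6th percentile of every array, and was not tested. It therefore gives no second reading of Gata2.

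Gata3 encodes the GATA factor of the nephric duct and bud. It read 544, 635, 820 and 787 on the wild-type arrays (replicates 1 to 4) against 921 and 990 in the mutant. Both mutant arrays again lay above all 4 wild-type arrays, but the wild-type values varied more than those of Gata2 (coefficient of variation 18.6% against 10.0%). The log2 difference was 0.47 ± 0.17 (SE), with a 95% interval of 0.08 to 0.85 before adjustment, and did not pass (limma, adjusted p = 0.117). The difference of Gata2 exceeded that of Gata3 by 0.48 (exact permutation test over the 15 splits of the 6 arrays, two-sided p = 0.133, or 0.133 adjusted over 3 pairs of members). The smallest p this design allows is 0.0667. These arrays do not settle whether the paralogues differed in response.

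Marker lists of erythroid, endothelial and neural crest cells moved in several directions beside Gata2 and Gata3. Over all probe sets tested, 4.65% passed as higher and 6.11% as lower. Of 10 erythroid genes tested, 3 rose, all of them embryonic globins (largest Hbb-bh1, 2.18), and 0 fell. The summed signal of the list was 23369.7 to 31808 in the wild type and 39129 to 40162 in the mutant, while Tal1 and Epb42 lay under the filter. Globins made up most of these sums, with Hba-a1 at means of 20969 and 20809, Hbb-y at 4119 and 12750 and Hba-x at 1306 and 4486. Outside the globins no gene passed. Gata1, Alas2 and Epor had -0.60, -0.46 and -0.13, and Nfe2, Klf1 and Ank1 had 0.22, 0.31 and 0.56. Of 13 endothelial genes, 5 fell and 0 rose (largest fall Nos3, -1.76), with sums of 9187 to 9631 against 7004 to 7028. Of 8 sympathetic, chromaffin and glial genes tested, 0 passed (limma; 4 at an unadjusted p under 0.05, all of them higher). At the probe set that represents each gene, Th and Ddc had -0.35 and -0.18, and all other genes tested had positive differences. Other tested probe sets had -0.30 for Stmn2, -0.17 for Tubb3 and 1.02 for Pnmt, and none of these passed. Sums were 7683 to 9011 against 9749.6 to 11052, most of it from Penk (means of 4906 and 6169) and Tubb3 (2563 and 2917). Penk is also in the stroma list given below, and another of its probe sets had -0.21. Another 6 genes lay under the filter (Chgb, Hand2, Isl1, Phox2a, Prph and S100b). The part of these cells in the Gata2 and Gata3 values was not tested.

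Calb1, a calcium-buffering protein that marks the bud and collecting duct and also the distal tubule, fell. It read 1462, 1459, 1541 and 1617 on the wild-type arrays (replicates 1 to 4) against 1054 and 924 in the mutant. The groups did not overlap, and the wild-type arrays were tight (coefficient of variation 4.95%). The mean went from 1520 ± 75.2 (SD, n = 4) to 989 ± 92.1 (SD, n = 2), which is -0.61 on the log2 scale with an SE of 0.10 (limma, adjusted p = 0.00539). Without mutant replicate 2, the lower of the mutant arrays, Calb1 had -0.52 and did not pass (adjusted p = 0.0904).

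Wfdc2, a secreted protein of the whey acidic protein family found in ducts and tubules, fell too. It read 1362, 1514, 1507 and 1617 on the wild-type arrays (replicates 1 to 4) against 1164 and 1084 in the mutant. The lowest wild-type array still exceeded both mutant arrays. The mean went from 1500.2 ± 105 (SD, n = 4) to 1124 ± 56.5 (SD, n = 2), which is -0.41 on the log2 scale with an SE of 0.10 (limma, adjusted p = 0.0349). This call was lost without wild-type replicate 2 (adjusted p = 0.0644), wild-type replicate 3 (0.0700), mutant replicate 1 (0.143) or mutant replicate 2 (0.256), and without a variance trend (0.0883). The difference of Calb1 minus that of Wfdc2 was -0.20 (exact permutation test, two-sided p = 0.0667, the smallest possible, or 0.1 adjusted over 3 pairs).

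Most nephron tubule genes tested fell beside Calb1 and Wfdc2, which tubules share. Of 16 tubule genes tested, 10 fell and 0 rose, beside 6.11% lower and 4.65% higher over all probe sets tested. Their median log2 difference was -2.31, with the largest fall at Pdzk1 (-4.70), a scaffold of brush-border transporters. Their summed signal was 5219 to 7868 in the wild type and 2000.5 to 2055 in the mutant. Pvalb alone of those tested had both mutant arrays above the wild-type range, with 0.49, and did not pass (limma, adjusted p = 0.0598). Umod and Slc12a3 lay under the filter, at means of 30.9 and 29.5 in the wild type and 21.6 and 60.6 in the mutant. The list was not split by tubule segment, so its fall is not a reading of the distal tubule. The part of tubule cells in the Calb1 and Wfdc2 values was not tested.

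Tfcp2l1, a CP2-family transcription factor of the collecting duct, gave 2 readings that did not pass. The brighter one read 1312, 1387, 1369 and 1369 on the wild-type arrays (replicates 1 to 4) against 1230 and 1263 in the mutant. Both mutant arrays lay below the wild type, by a log2 difference of -0.12 (95% interval -0.32 to 0.07; limma, adjusted p = 0.426). The dimmer one read 163, 124, 230 and 259 against 198 and 206. Here the mutant arrays fell inside the wild-type range, with 0.10 (95% interval -0.55 to 0.75; adjusted p = 0.861). The intervals leave room for a fall of 0.32 at the brighter probe set and for changes of either sign at the other.

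**Figure D2:**
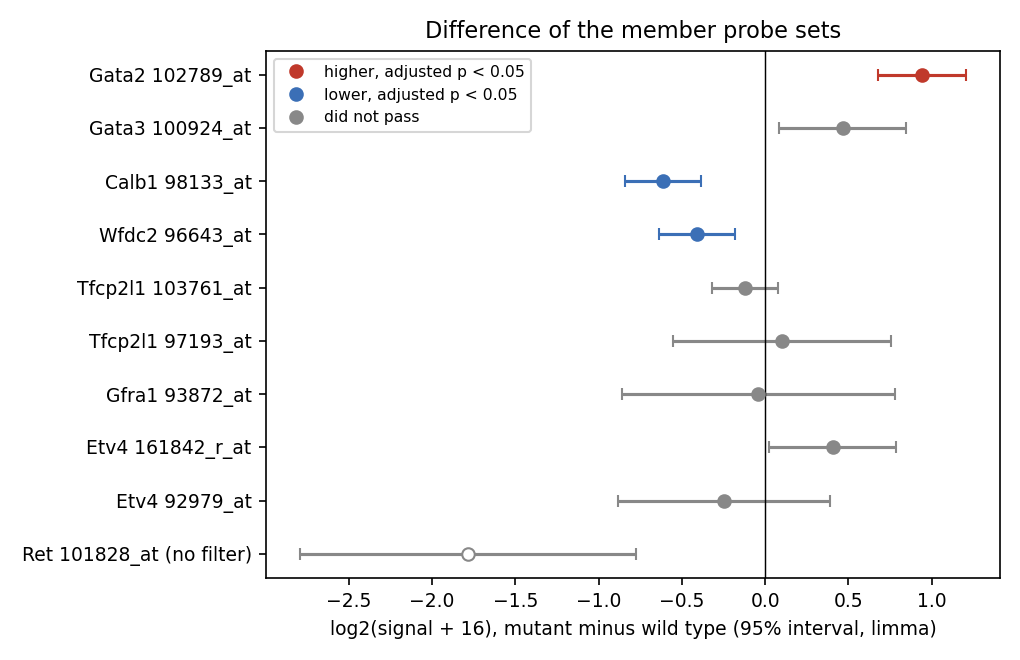
Log2 difference, mutant minus wild type, of each tested member probe set with its 95% interval (limma, 4 against 2 arrays, log2(signal + 16) scale), red for higher, blue for lower and grey for not passing. Gata2 stands at 0.94, Calb1 at -0.61 and Wfdc2 at -0.41, and the open point shows Ret at -1.79, fitted without the filter on low signals.

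Of the receptor pair of the bud tip, Ret was measured at low signals and Gfra1 was above the 40th percentile on all 6 arrays. Ret read 86.3, 30.5, 104 and 71.3 on the wild-type arrays (replicates 1 to 4) against 8.08 and 8.61 in the mutant. Every mutant value was below every wild-type value, but just 1 array, wild-type replicate 3, exceeded the 40th percentile of its own signals, so Ret was not among the probe sets tested. With no filter, Ret had a log2 difference of -1.79 ± 0.44 (SE; 95% interval -2.80 to -0.78), which did not pass (limma, adjusted p = 0.0545 over 12422 probe sets, of which 3.14% passed as lower). Fits added after the data were seen gave -2.85 with an offset of 1 (adjusted p = 0.0387), -0.89 with 64 (0.0772) and -1.82 after quantile normalization (0.0447). Without wild-type replicate 2, the lowest wild-type array for Ret, the value was -2.07 (adjusted p = 0.0209), and with any other array left out it ran from -1.62 to -1.80 without passing. The mutant signals lie near the floor of the array, where the size of a log2 difference follows the offset.

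Gfra1, the GDNF-binding co-receptor, read 347, 120, 297 and 296 on the wild-type arrays (replicates 1 to 4) against 228 and 252 in the mutant. Wild-type replicate 2 stood far below the other wild-type arrays, as it did for Ret, and the mutant values fell inside the wild-type range. The log2 difference was -0.04 (95% interval -0.86 to 0.78; limma, adjusted p = 0.958), and without wild-type replicate 2 it was -0.36 (adjusted p = 0.209). Fitted without the filter, the difference of Ret minus that of Gfra1 was -1.75 (exact permutation test, two-sided p = 0.0667, the smallest possible, or 0.1 adjusted over 3 pairs).

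Etv4, an ETS transcription factor raised by RET signalling, had 2 probe sets that disagreed in sign. The probe set of type _r_at read 414, 477, 373 and 528 on the wild-type arrays (replicates 1 to 4) against 663 and 531 in the mutant. The mutant arrays lay above the wild type, the lower one by a narrow margin, and the log2 difference of 0.41 (95% interval 0.02 to 0.79 before adjustment) did not pass (limma, adjusted p = 0.163). The probe set of type _at read 378, 445, 364 and 212 against 341 and 233. These groups overlapped, with -0.25 (95% interval -0.89 to 0.39; adjusted p = 0.635). The mean of both probe sets had 0.08 (adjusted p = 0.821), so no direction can be given for Etv4. The planned comparison of Etv4 with Spry1 could not be run.

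For 6 of the 9 member probe sets tested, both mutant values were beyond all 4 wild-type values, 3 above them (Gata2, Gata3 and the _r_at probe set of Etv4) and 3 below them (Calb1, Wfdc2 and the brighter probe set of Tfcp2l1). The same held for 37.4% of all probe sets tested, 18.6% above and 18.8% below. The overlapping members varied most: Gfra1, the _at probe set of Etv4 and the dimmer probe set of Tfcp2l1 had wild-type coefficients of variation of 37.6%, 28.2% and 31.6%.

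Other genes around GDNF and RET, taken from a list of 45, were measured for 30 genes, of which 25 were tested. Of these, 3 rose, 2 fell and 20 did not pass, beside 4.65% higher and 6.11% lower over all probe sets tested. Their median log2 difference was 0.21 beside 0.01 over all genes tested. The list holds the ligand, adaptors and inhibitors as well as targets, so its median is not a reading of RET output. Dusp6, the phosphatase that switches off ERK kinases and is itself an ERK target, read 1927, 1926, 2128 and 1816 on the wild-type arrays (replicates 1 to 4) against 1057 and 1195 in the mutant. Its groups were well apart, with a log2 difference of -0.78 (limma, adjusted p = 0.00156), and its call held with each array left out. Myb, a transcription factor expressed under RET signalling, fell by 0.71 (adjusted p = 0.0205). Gfra2, the co-receptor for the related ligand neurturin, rose by 1.08 (adjusted p = 0.0400), from 148 ± 45.9 (SD, n = 4) to 320 ± 5.32 (SD, n = 2). The adaptors Shc1 and Gab1, which couple receptor tyrosine kinases to their pathways, rose by 0.50 and 0.46 (adjusted p = 0.0385 and 0.0259). Second probe sets of Shc1 and Gab1 had 0.93 and 0.53 without passing (adjusted p = 0.432 and 0.0612). Those of Dusp6, Gfra2 and Myb lay under the filter and were not tested. Their means were 25.0, 42.5 and 6.9 in the wild type and 52.4, 98.5 and 5.1 in the mutant. At the dim probe set of Dusp6, both mutant arrays thus lay above the wild-type range, against the direction of its call.

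The ligand gene itself did not pass. Gdnf read 742, 943, 904 and 765 on the wild-type arrays (replicates 1 to 4) against 880 and 958 in the mutant. The groups overlapped, with 0.14 (95% interval -0.16 to 0.43; limma, adjusted p = 0.565). A second, dimmer probe set of Gdnf had 0.51 with a wider interval (95% interval -0.56 to 1.58; limma, adjusted p = 0.554). Spry4, a Sprouty inhibitor of the pathway, had 0.33 (95% interval -0.13 to 0.78; adjusted p = 0.358). Other calls of this list were lost in some fits with 1 array left out, while their differences kept their sign. These ran from 0.91 to 1.24 for Gfra2, 0.44 to 0.57 for Shc1, 0.41 to 0.49 for Gab1 and -0.82 to -0.60 for Myb. Without wild-type replicate 1, calls over all probe sets fell too, from 371 rises and 488 falls to 255 and 320. A fit on fewer arrays has less power, so a lost call alone does not mark a changed difference. Gfra2, Shc1, Gab1 and Myb lost theirs without wild-type replicate 1, mutant replicate 1 or mutant replicate 2, Gfra2 also without wild-type replicate 4, and Shc1 and Myb also without wild-type replicate 3. In counts, without wild-type replicate 1, mutant replicate 1 or mutant replicate 2, 0 genes rose and 1 fell, and without wild-type replicate 2, 3 rose and 4 fell. Without wild-type replicate 3, 2 rose and 1 fell, and without wild-type replicate 4, 3 rose and 3 fell. With no filter 1 gene rose, and without a variance trend 0 rose.

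Among other genes of the bud and collecting duct, a list of 54 with 38 on the array, 34 were tested. Of these, 6 rose, 7 fell and 21 did not pass, beside 4.65% higher and 6.11% lower over all probe sets tested. The median log2 difference was -0.02. The median had no stable sign: it was 0.13, 0.16 and 0.12 without wild-type replicate 2, wild-type replicate 3 and mutant replicate 2, and -0.11 and -0.18 without wild-type replicate 4 and mutant replicate 1. Stroma genes were higher beside these lists, with 9 of 15 rising and 1 falling (largest Foxd1, 1.75, and Tagln, -1.32; sums of 23023 to 26180.5 against 41086 to 41469). Skeletal muscle genes were higher too, with 7 of 12 rising and 0 falling (largest Tnnc1, 2.76; sums of 1897 to 2679 against 6557 to 6949.9). Of 11 nephron progenitor genes, 3 fell and 0 rose (largest Uncx, -1.33). The part of these shifts in the bud and duct values was not tested.

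**Figure D3:**
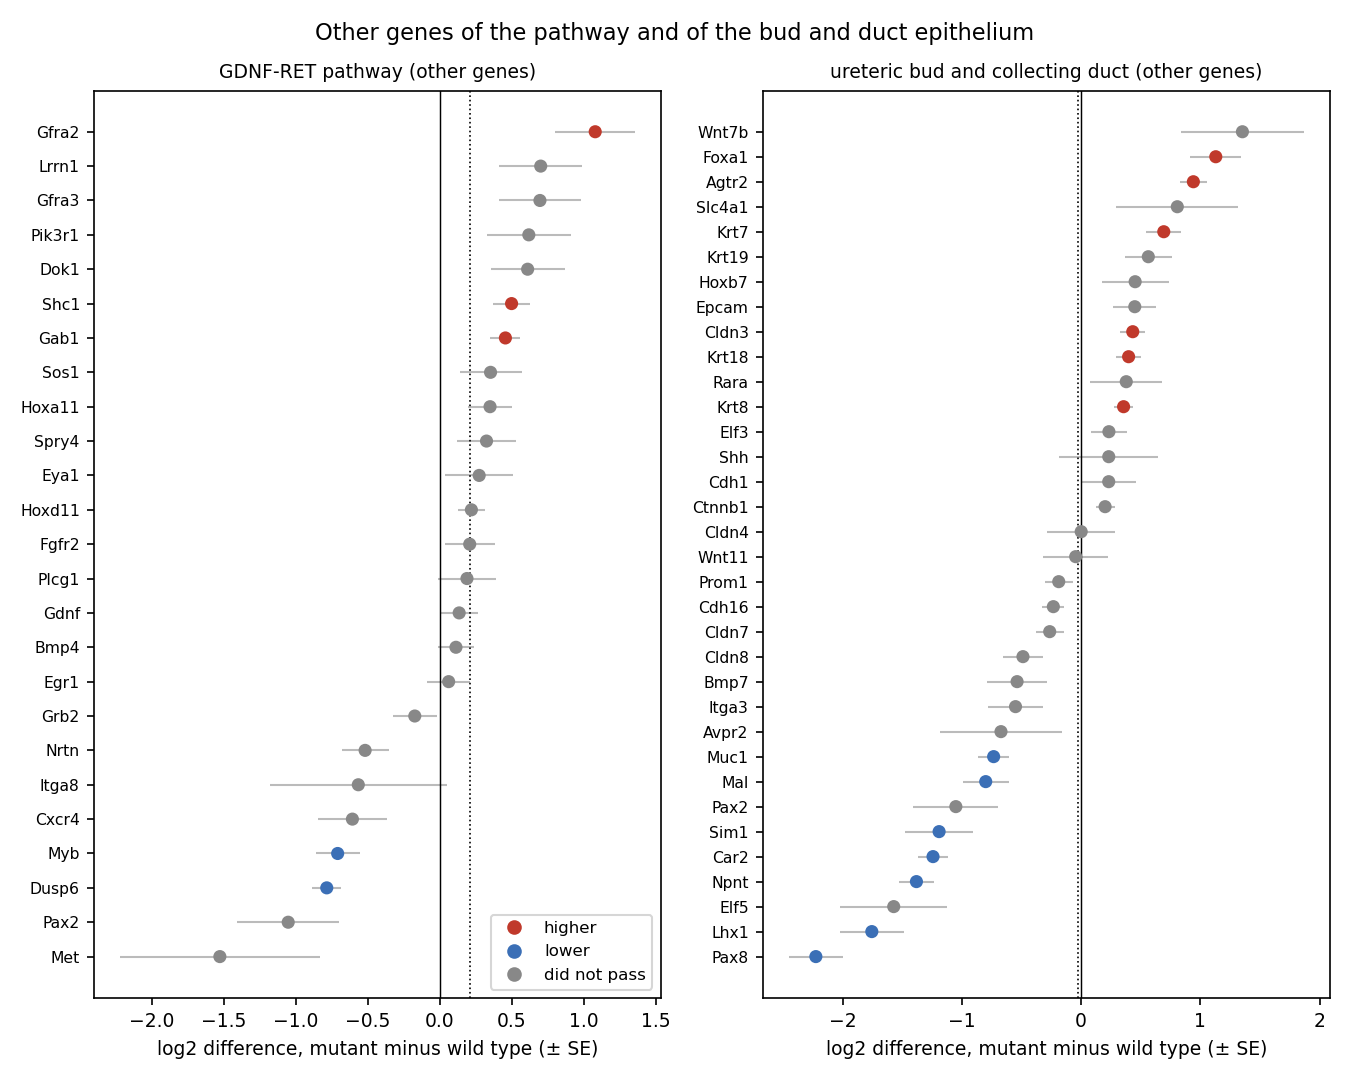
Log2 difference, mutant minus wild type, with its SE for the 25 tested genes around GDNF and RET (left) and the 34 tested genes of bud and duct (right), members left out, red for higher, blue for lower and grey for not passing, with dotted lines at the medians of 0.21 and -0.02. Gfra2 tops the calls on the left at 1.08 and Dusp6 is the lowest call at -0.78, while the right panel runs from Pax8 at -2.23 to Wnt7b at 1.35, which did not pass.

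The 6 rises in this list were at Foxa1, Agtr2, Krt7, Cldn3, Krt18 and Krt8. Foxa1, a forkhead factor of duct and urinary epithelium, read 185, 131, 197 and 212 on the wild-type arrays (replicates 1 to 4) against 398 and 422 in the mutant. The mutant arrays were clearly above the wild type, by 1.13 (limma, adjusted p = 0.0110). Agtr2, an angiotensin receptor of the fetal kidney and its mesenchyme, rose by 0.94 (adjusted p = 0.00121), from 623 ± 31.1 (SD, n = 4) to 1215 ± 155 (SD, n = 2). The keratins Krt7, Krt18 and Krt8, intermediate filaments of simple epithelia, rose by 0.69, 0.40 and 0.36 (adjusted p = 0.0179, 0.0474 and 0.0276), and the tight junction claudin Cldn3 by 0.43 (adjusted p = 0.0319). With each array divided by its median, Krt8, Krt18 and Cldn3 kept their direction but did not pass (adjusted p = 0.0907, 0.0722 and 0.0624). Foxa1 and Krt7 did not pass without mutant replicate 1 or 2. Krt8, Krt18 and Cldn3 also lost their calls without some wild-type arrays. Their differences moved little over the fits with 1 array left out, at 0.34 to 0.37, 0.35 to 0.45 and 0.39 to 0.48. When 1 array was left out, Krt8 passed only without wild-type replicate 4, Krt18 only without replicate 3, and Cldn3 only without replicate 2 or 4. Agtr2 alone of these 6 passed with every array left out in turn, and with either mutant array left out it was the 1 gene of the list that rose.

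The 7 falls included genes that nephrons share with the bud. The smallest was at Muc1 (-0.73; limma, adjusted p = 0.00811), which lay outside the 6 a direction that the rule for named genes took. Pax8 and Lhx1, transcription factors of the nephric duct, the bud and the renal vesicle, fell by 2.23 and 1.76 (limma, adjusted p = 4.96e-04 and 0.00377). Npnt, a basement membrane ligand made by the bud, read 1435, 1074, 1438 and 1114 on the wild-type arrays (replicates 1 to 4) against 464 and 478 in the mutant. Its mutant arrays were under the lowest wild-type array by a wide margin, with a difference of -1.38 (adjusted p = 5.93e-04). Car2, a carbonic anhydrase of intercalated cells and tubules, fell by 1.24 (735 ± 73.6 to 300.1 ± 3.82, SD, n = 4 and 2; adjusted p = 5.57e-04), the transcription factor Sim1 by 1.19 (adjusted p = 0.0312) and Mal, a membrane transport protein of polarized epithelia, by 0.80 (adjusted p = 0.0319). Pax8, Lhx1, Npnt and Car2 kept their calls with each array left out, whereas Sim1 passed only without wild-type replicate 4 (adjusted p up to 0.216 otherwise). Mal was lost without wild-type replicate 1, wild-type replicate 2 or mutant replicate 1 (adjusted p up to 0.259).

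Several standard bud markers did not pass. Pax2, which both lists hold, is a paired-box factor of bud and progenitors and read 278, 115, 268 and 244 on the wild-type arrays (replicates 1 to 4) against 115 and 78.7 in the mutant. Wild-type replicate 2 was level with the higher mutant array while the other wild-type arrays lay far above, and Pax2 had -1.05 (limma, adjusted p = 0.0961), or -1.32 without wild-type replicate 2 (adjusted p = 0.0114). Wnt11, the tip ligand that acts with RET, had -0.05 (95% interval -0.66 to 0.57; adjusted p = 0.937). The epithelial cadherins Cdh1 and Cdh16 had 0.23 and -0.23 (95% intervals -0.29 to 0.76 and -0.44 to -0.03; adjusted p = 0.585 and 0.143). Aqp2, the water channel of mature collecting duct, lay under the filter at means of 98.3 and 60.4.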

How the data were processed

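RNA of 4 wild-type and 2 Wnt4 mutant kidney pools was measured on 6 one-colour Affymetrix arrays, after 1 round of amplification and biotin labelling per the labels. The authors deposited an intensity per probe set on a linear scale, from GCOS, as the submitters' processing notes name it. The sources used here give neither its version nor the algorithm. Each column's mean without the lowest and highest tails lay near 500.3, so arrays had been scaled to a common level before deposit. The number of arrays limits the precision.

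Gene names came from the platform annotation, updated by gene identifier to RefSeq (GRCm38.p6): 10833 of 12422 probe sets had 1 symbol, 396 several and 1193 none. Probe sets above the 40th percentile of their own array on at least 2 arrays were kept (7981). Values were analysed as log2(signal + 16), which understates changes of low signals, with limma 3.58.1 under R 4.3.3 (lmFit, eBayes with a variance trend, no covariate) and adjustment by Benjamini-Hochberg across the kept probe sets, at 0.05. On simulated data, with 7934 probe sets tested for this comparison, the fit recovered 64% of changes of size 1 and 97% of size 2 on the log2 scale. It made 9 false calls at probe sets left unchanged. Noise was drawn independently for each probe set, and smaller changes were not simulated. In lists, a gene was represented by its kept probe set with the highest mean. Pairs of members were compared by exact permutation over arrays. The rule for named genes took all members, fixed pathway genes where measured, the called genes of the pathway lists (up to 6 a direction) and the largest calls of each cell type list. Members, lists and alternatives were chosen with earlier results of these data known. Promoter sequences are from RefSeq tables and no probe set was mapped to a genome.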

Additional observations from a re-analysis of the deposited data

Results flagged for a closer look

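Wild-type arrays were checked at 69 probe sets, those of the members and of the tested genes in the lists around GDNF and RET and of bud and duct. At 5 of them, 1 of the 4 wild-type arrays stood apart on the log2(signal + 16) scale by a gap above Dixon's limit for groups of 4, which chance passes in about 5% of groups. The gap is given as a share of the group's range. Gfra1 was lowest in wild-type replicate 2, with a gap of 0.847 of the range (120 beside 296 to 347). Pax2 was lowest in the same array, with 0.851 (115 beside 244 to 278). Cdh1 was lowest in wild-type replicate 4, with 0.877 (226 beside 374 to 401). Fgfr2 was highest in wild-type replicate 4, with 0.866 (2673 beside 1734 to 1838). Egr1 was highest in wild-type replicate 3, with 0.944 (320 beside 279.8 to 282).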

How the results depend on the processing

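Gata2 kept its direction and its call under all alternatives run on it, and member calls otherwise moved as follows. Among the members, 1 fell in place of 2 without a variance trend, with a replicate block (2 rose) and without wild-type replicates 2 and 4 together. With 1 array left out, the members had 1 rise throughout and 0 to 2 falls. The replicate number as a block gave Gata3 0.69 (adjusted p = 0.0203), Wfdc2 -0.35 (0.132) and Gfra1 0.21, and in the list around GDNF and RET 1 rise and 1 fall. The labels do not say that equal numbers mark shared litters or days, and deviations of same-numbered arrays correlated at 0.003 and -0.015, so the block rests on a number alone. Over all probe sets, leaving out 1 array gave 114 to 448 rises and 188 to 553 falls, and array weights gave 613 and 738. In the list around GDNF and RET, rises were 0 to 3 and falls 1 to 4 with 1 array left out, 1 rise with no filter, 0 rises without a variance trend and 4 falls with array weights. In the bud and duct list, rises were 1 to 5 and falls 4 to 7 with 1 array left out, 3 rises with each array divided by its median and 2 without a variance trend. With 1 array left out, signs turned for Gfra1 (-0.36 to 0.11), the dimmer probe set of Tfcp2l1 (-0.077 to 0.25), the _at probe set of Etv4 (-0.51 to 0.0098) and Wnt11 (-0.25 to 0.16), none of which passed. The causes were not tested. Low signals limit Ret, whose size followed the offset.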
